A study of Mus musculus with 12 samples.

Results

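The genes of oxidative phosphorylation were described in adipocytes in which SRA (steroid receptor RNA activator, a noncoding RNA) had been overexpressed or knocked down. Members were chosen by gene symbol. A gene was taken if its symbol starts with Nduf, Uqcr or Atp5, or with Cox and a digit from 4 to 8, or is Sdha, Sdhb, Sdhc or Sdhd, and if at least 1 probe set on the array carries that symbol alone. This gave 90 genes of 18194 with such a probe set, with 44 in complex I, 4 in complex II, 8 in complex III, 17 in complex IV and 17 in complex V. Of these, 81 are subunits and 9 are assembly factors that share a subunit's prefix. Cyc1 of complex III and the subunits encoded by mitochondrial DNA lie outside the rule.

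In all, 4 groups of 3 Affymetrix mouse arrays each (12 arrays, labelled biological replicates) were compared. ST2 cells, a mouse marrow stromal line (strain label BC8), carried either the pMSCV retrovirus with a human SRA cDNA (ST2 SRA) or the empty pMSCV vector (ST2 control), and RNA was taken on day 4 of differentiation. 3T3-L1 cells, a mouse preadipocyte line (Swiss albino), carried pSuperior retrovirus with a short hairpin against mouse SRA (shSRA-2, here shSRA) or a control hairpin (shControl, which the labels call an empty vector), and RNA was taken on day 8. All cells were selected with puromycin and received the MDIT cocktail of troglitazone (5 µM), insulin (0.167 µM), dexamethasone (1 µM) and methylisobutylxanthine (0.5 mM), so no undifferentiated or untransduced cells enter any comparison.

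The respiratory chain passes electrons from NADH (complex I) and succinate (complex II) through coenzyme Q, complex III and cytochrome c to oxygen at complex IV, and ATP synthase (complex V) uses the proton gradient so formed to make ATP. Each complex has core subunits that carry catalysis and accessory subunits that stabilise or tune it. Complex IV has several accessory subunits that come as a ubiquitous isoform and a second isoform known from heart and skeletal muscle, and some of the latter are also known from brown fat. White adipocytes gain mitochondria as they differentiate, and PGC-1 coactivators with ERRα, NRF1 and GABP are known regulators of these genes.

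Sequences upstream of such isoform pairs are shown because the pairs carry the most divergent values below. They are the 250 bases before the RefSeq start site (mouse build GRCm38.p6), 5′ to 3′ on the gene's strand, with CpG dinucleotides in capitals. Cox8b (chr7:140900447-140900696, minus strand) and Cox7a1 (chr7:30183921-30184170, plus strand) are the heart and muscle isoforms, and Cox8a (chr19:7217617-7217866, minus strand) and Cox7a2 (chr9:79759854-79760103, minus strand) the ubiquitous ones.
Cox8b: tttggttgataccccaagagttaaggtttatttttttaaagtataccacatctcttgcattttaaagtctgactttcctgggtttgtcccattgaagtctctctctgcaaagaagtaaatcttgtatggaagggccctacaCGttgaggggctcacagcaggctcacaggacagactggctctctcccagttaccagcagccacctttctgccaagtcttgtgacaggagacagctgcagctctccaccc
Cox8a: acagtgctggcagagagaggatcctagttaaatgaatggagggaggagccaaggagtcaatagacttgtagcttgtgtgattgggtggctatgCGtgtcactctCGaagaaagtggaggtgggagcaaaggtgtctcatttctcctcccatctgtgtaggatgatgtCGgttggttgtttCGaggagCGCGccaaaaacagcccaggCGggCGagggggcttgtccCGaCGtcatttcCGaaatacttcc
Cox7a1: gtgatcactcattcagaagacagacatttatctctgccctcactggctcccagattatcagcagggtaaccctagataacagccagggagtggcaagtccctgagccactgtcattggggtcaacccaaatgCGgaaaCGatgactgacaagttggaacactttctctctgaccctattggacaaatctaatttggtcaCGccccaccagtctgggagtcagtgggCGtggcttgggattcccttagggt
Cox7a2: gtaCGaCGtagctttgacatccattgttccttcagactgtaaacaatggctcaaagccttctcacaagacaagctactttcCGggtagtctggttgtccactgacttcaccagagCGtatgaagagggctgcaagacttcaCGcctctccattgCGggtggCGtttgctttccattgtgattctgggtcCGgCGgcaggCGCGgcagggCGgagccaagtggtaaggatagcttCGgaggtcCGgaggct

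The Cox8b window held 1 CpG and the Cox7a1 window 4, against 11 for Cox8a and 14 for Cox7a2. RefSeq windows matched 74 of the 90 genes by gene identifier, with 79 windows among them. Their CpG count ran from 1 to 35 with a median of 15, and over all 32851 mouse windows of this length the median was 6. Under 5 CpG were found in 3 of the 79 member windows, those of Cox8b, Cox7a1 and the complex I subunit Ndufc2, a share of 3.8% against 44.4% of all windows. Core letters of 4 factors known to bind such promoters were searched on both strands. The NRF1 core GCATGCG lay in 11.4% of member windows and 3.02% of all windows, the ETS core CCGGAAG of GABP in 17.7% and 6.91%, the YY1 core ATGGCGG in 7.59% and 2.21%, and the ERR core AAGGTCA in 6.33% and 4.08%. At least 1 of these 4 was present in 29 of the 79 windows (36.7%, against 15.1% of all windows), and in none of the 4 windows printed above. The NRF1, ETS and YY1 cores each hold a CpG, and member windows held more CpG than all windows. Shares in windows of equal CpG count were not taken. These counts describe letters in windows and not binding.

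Values are log2 RMA expression values, with 1 probe set kept per gene, the one with the highest mean over the 12 arrays. Probe sets differ in how strongly they bind, so levels are compared between arrays and never between genes. Most members were bright: 68 had a mean of at least 12 and 15 a mean below 10. The variance filter that the study set kept 19068 of 45101 probe sets, and 38 of the 90 members passed it and were tested with limma. The other 52 varied too little over the 12 arrays to enter the test, and their differences are given as values only. Fits that left out an array kept the same 38 members, so the filter still used the values of the array left out. A member is called changed at a Benjamini-Hochberg adjusted p under 0.05, over all 19068 probe sets. Each p measures the spread between these arrays, and in cell populations fewer adipocytes and less RNA per adipocyte cannot be told apart.

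The hairpin against SRA lowered its target. Sra1 read 11.86, 11.67 and 11.84 in shControl and 9.46, 9.20 and 9.62 in shSRA (log2 difference -2.36, SE 0.18, limma adjusted p = 5.58e-07). In ST2 cells Sra1 read 11.14, 10.67 and 11.24 in the control and 11.13, 11.13 and 11.44 with SRA. The vector holds a human cDNA, so this mouse probe set is no check of the overexpression. The adipocyte label held on every array, with Fabp4 between 14.62 and 15 and Adipoq between 14.29 and 14.82. Ucp1, the defining gene of brown fat, read 5.67 to 6.34 on all 12 arrays.

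One control array stood apart for these genes, and the main ST2 results are therefore given with and without it. ST2 control replicate 2 gave the lowest value of its group for 84 of the 90 members. Relative to each gene's mean over the 12 arrays the median member stood at -0.51 on this array, and between -0.14 and 0.18 on the other 11. The shift was -0.53 for complex I, -0.61 for II, -0.57 for III, -0.32 for IV and -0.46 for V. Relative to the mean of the other ST2 control arrays, the members stood at -0.47 on this array and the other genes with a mean of at least 12 at -0.42. The whole array was compressed at the top, with its 75th percentile at 8.40 and its 95th at 11.05, where the other arrays lay between 8.65 and 8.78 and between 11.39 and 11.53. ST2 control replicate 2 therefore also widened the error of its group. The median SD of a member was 0.29 in ST2 control (0.12 without replicate 2), 0.06 in ST2 SRA, 0.10 in shControl and 0.09 in shSRA.

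**Figure D1:**
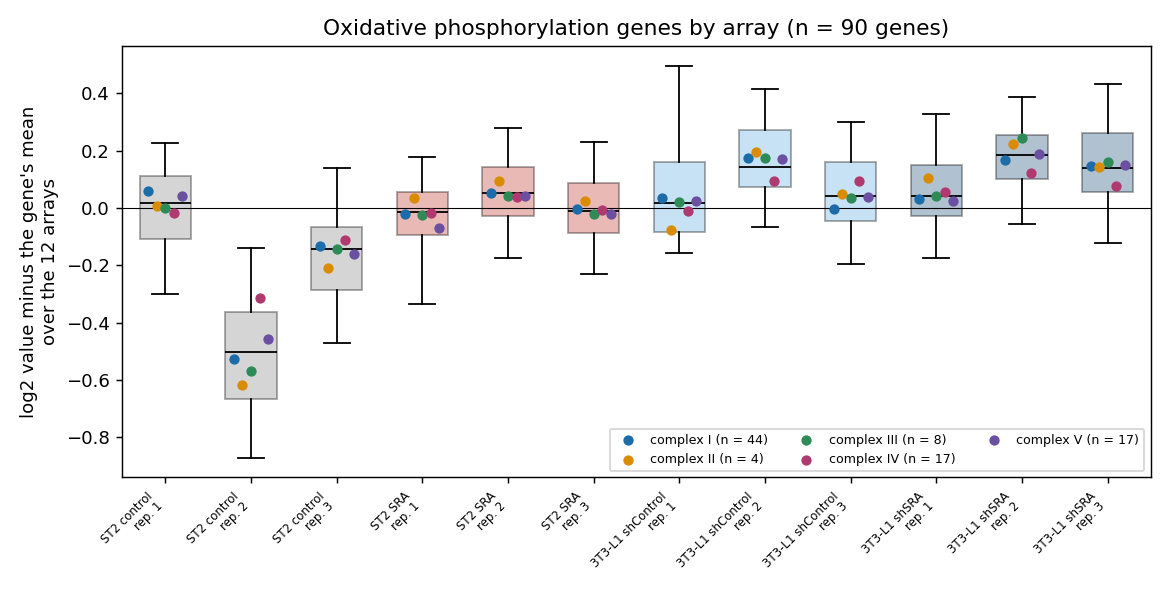
Log2 value of each of the 90 genes minus that gene's mean over the 12 arrays (y axis), for each array (x axis). Boxes span the quartiles over the genes with the median inside, whiskers run from the 5th to the 95th percentile, and coloured points are the medians of complexes I to V. ST2 control replicate 2 lies at a median of -0.51 and the other 11 arrays between -0.14 and 0.18.

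The first comparison asked which of these genes responded to SRA overexpression in ST2 adipocytes. Of the 38 tested members 1 rose, the complex IV isoform Cox6a2 (2.63%, where 2.33% of all tested probe sets rose), and none fell (5.65% of all probe sets fell). At an unadjusted p under 0.05 the limma test gave 12 higher (31.6%, against 12.1% of all probe sets) and 0 lower (against 10.1%). Without ST2 control replicate 2 these 12 became 3 (7.89%, against 7.52% of all probe sets, with 0 lower against 16.2%), namely Cox6a2, Ndufaf3 and Ndufb10, and Cox6a2 was again the single called gene (2.02% of all probe sets rose and 9.83% fell in that fit). With no variance filter, 1 of the 90 members was called, the complex I assembly factor Ndufaf3 (1.06% of all probe sets rose and 2.2% fell).

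Small positive differences ran through all 5 complexes, and most of their size rested on the 1 control array. The median difference over the 90 genes was 0.23 on the log2 scale, with 88 above 0 (97.8%), against 0.06 and 63.1% over all genes and 0.13 and 74.7% over the 768 genes with a mean of at least 12. Without ST2 control replicate 2 the median member stood at 0.07 with 73 above 0 (81.1%), against 0.04 and 58.1% over all genes and -0.01 and 48.4% over genes as bright. ST2 control and ST2 SRA arrays did not overlap for 22 of the 90 genes (24.4%, against 19.3% of all genes), and for 24 without that control array (26.7%, against 37.1% of all genes). The sign of the difference turned without it for 15 of the 90 genes, none of which had differed by more than 0.19.

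By complex, the median difference was 0.25 for complex I, 0.35 for complex II, 0.27 for complex III, 0.16 for complex IV and 0.19 for complex V. Without ST2 control replicate 2 these became 0.07, 0.15, 0.10, 0.05 and 0.05. By role, the 19 core subunits had a median of 0.25, the 60 accessory subunits 0.21 and the 9 assembly factors 0.25, and without that array 0.09, 0.07 and 0.07. The other 2 members, Ndufa4 and Ndufa4l2, were named for complex I and since placed in complex IV by their biochemistry. They were kept apart in the roles only and stayed in the complex I medians and counts, which follow the symbol. They differed by 0.04 and 0.03 (-0.10 and 0.18 without that array).

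**Figure D2:**
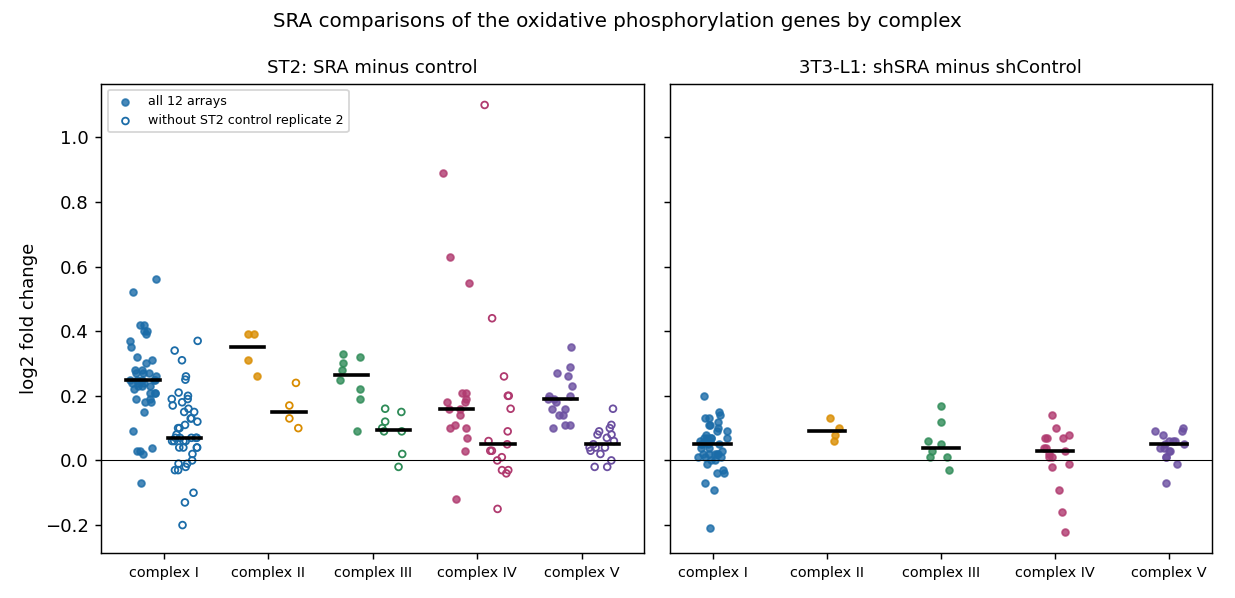
Log2 difference of each member between SRA overexpression and control in ST2 cells (left) and between shSRA and shControl in 3T3-L1 cells (right), by complex. Filled points use all 12 arrays, open points leave out ST2 control replicate 2, and black bars are medians. In ST2 the medians of the 5 complexes lie between 0.16 and 0.35 with all arrays and between 0.05 and 0.15 without that array, and in 3T3-L1 they lie between 0.03 and 0.09.

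In complex I, which takes electrons from NADH, the differences ran from -0.07 for the accessory subunit Ndufa3 to 0.56 for the accessory subunit Ndufb10. Ndufb10 read 12.09, 11.33 and 11.72 in ST2 control and 12.21, 12.33 and 12.29 in ST2 SRA. All 3 SRA arrays were above the control arrays, and the difference narrowly missed the threshold (SE 0.17, limma adjusted p = 0.0504, and 0.37 with adjusted p = 0.0722 without control replicate 2). Ndufaf3, which helps assemble the matrix arm of complex I, read 9.45, 8.90 and 9.42 in the control and 9.78, 9.77 and 9.78 with SRA. The SRA arrays lay within 0.01 of each other and above every control array (difference 0.52, SE 0.16, limma adjusted p = 0.0557, and 0.34 with adjusted p = 0.0540 without control replicate 2). The core iron-sulphur subunit Ndufs1 read 12.35, 11.68 and 12.07 in the control and 12.26, 12.34 and 12.25 with SRA, so the groups overlapped and the difference of 0.25 came down to 0.07 without control replicate 2. Ndufv1, the core subunit that binds NADH, read 13.36, 12.79 and 13.17 against 13.35, 13.53 and 13.36. Without control replicate 2 its difference of 0.31 was 0.15. Neither varied enough to be tested.

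In complex II, succinate dehydrogenase, the differences were 0.26 for its flavoprotein Sdha and up to 0.39 for the iron-sulphur subunit Sdhb and the membrane anchor Sdhd. Sdhb read 13.15, 12.36 and 12.88 in ST2 control and 13.15, 13.24 and 13.18 in ST2 SRA. Sdhd read 12.42, 11.80 and 12.09 in the control and 12.46, 12.58 and 12.43 with SRA. In both genes control replicate 1 stood close to the SRA arrays, and without replicate 2 the differences were 0.17 and 0.24. None of the 3 tested members of complex II was called.

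In complex III the differences ran from 0.09 for Uqcrb to 0.33 for the hinge subunit Uqcrh. Uqcrh read 12.97, 12.34 and 12.71 in the control and 12.97, 13.01 and 13.02 with SRA, and the Rieske iron-sulphur subunit Uqcrfs1 read 13.40, 12.93 and 13.24 against 13.36, 13.49 and 13.40. Uqcrfs1 overlapped between the groups, and without control replicate 2 it differed by 0.09, Uqcrh by 0.16 and Uqcrb by -0.02. In complex V the differences ran from 0.10 for Atp5j2 to 0.35 for Atp5g2, 1 of 3 genes that encode the same c-ring protein. Atp5g2 read 12.52, 11.92 and 12.42 against 12.59, 12.62 and 12.69, and every SRA array was higher, by 0.16 on average without control replicate 2. Atp5j2 stood at -0.02 without that array. The other c-ring genes differed less, Atp5g1 reading 11.96, 11.39 and 11.92 against 12.01, 12.08 and 12.05, and Atp5g3 reading 14.07, 13.76 and 13.95 against 14.04, 14.15 and 14.05. A second probe set of Atp5c1, the γ subunit of the rotor, was called higher (log2 difference 0.68, SE 0.18, limma adjusted p = 0.0246) while the brighter one kept by the rule differed by 0.19, and the call was lost without control replicate 2 (adjusted p = 0.0592).

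Complex IV held both ends of the range, from -0.12 for Cox8b to 0.89 for Cox6a2. Cox6a2, the heart and muscle isoform of an accessory subunit, read 6.90, 8.05 and 7.96 in ST2 control (7.64 ± 0.64, SD, n = 3) and 8.60, 8.37 and 8.62 in ST2 SRA (8.53 ± 0.14, SD, n = 3). All SRA arrays were higher, and control replicate 1, not replicate 2, was the low array here. The difference was 0.89 (SE 0.26, limma adjusted p = 0.0349) and grew to 1.10 without control replicate 2 (adjusted p = 0.0223). Without control replicate 1 it was 0.53 and no longer called (adjusted p = 0.127), and the call was also lost without ST2 SRA replicate 1, 2 or 3 (adjusted p = 0.108, 0.0737 and 0.106). In the second, dimmer Cox6a2 probe set control replicate 1 lay closer to the other controls, with 5.61, 5.85 and 5.87 in the control and 6.61, 6.40 and 6.65 with SRA (difference 0.77, SE 0.19, limma adjusted p = 0.0115). Both probe sets therefore passed the test, and neither group pair overlapped.

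The second muscle-type isoform, Cox7a1, read 7.91, 7.66 and 8.53 in ST2 control and 8.08, 9.0 and 8.92 in ST2 SRA. The groups overlapped, and the difference of 0.63 (SE 0.25) was not called (limma adjusted p = 0.138, and 0.44 with adjusted p = 0.385 without control replicate 2). Cox8b read 7.38, 7.02 and 6.83 against 6.87, 6.94 and 7.05, with no separation. The ubiquitous counterparts Cox6a1, Cox7a2 and Cox8a differed by 0.10, 0.16 and 0.18, and by 0.03, 0.03 and 0.06 without control replicate 2, and none varied enough to be tested.

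A list of 5 skeletal muscle markers moved with Cox6a2 in its summed level, which was 8.83 to 9.09 in ST2 control and 9.42 to 9.58 in ST2 SRA. Of the 5, only skeletal actin Acta1 was tested, and it rose (0.95, SE 0.21, limma adjusted p = 0.00557). The defining genes Myog, Myh1 and Ckm differed by 0.07 to 0.08 and read at most 7.04 in ST2 cells. Other cell states moved with the comparison. The summed adipocyte markers were 16.46 to 16.85 in ST2 control and 16.88 to 16.95 in ST2 SRA. Their median difference was 0.41, and 0.23 without control replicate 2. Of 5 tested 1 rose (2.33% of all probe sets rose), Slc2a4 (1.08, SE 0.16, limma adjusted p = 0.000176, and 0.000404 without that array). The summed markers of dividing cells were 10.63 to 11.32 in ST2 control and 9.20 to 9.91 in ST2 SRA. Of these, 3 of 3 tested genes were lower, with and without control replicate 2 (5.65% and 9.83% of all probe sets fell). Summed preadipocyte and fibroblast markers were 14.64 to 15.06 and 13.79 to 14.15. The part of these in the values of the respiratory chain was not tested.

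Other genes of the pathway gave few calls in ST2 cells. In a list of regulators of mitochondrial biogenesis, 1 of 13 tested genes rose and none fell (2.33% and 5.65% of all probe sets). This was Esrra, which encodes ERRα, at 9.79, 9.34 and 9.68 in the control and 10.12, 10.33 and 10.01 with SRA. The arrays separated (difference 0.55, SE 0.17, limma adjusted p = 0.048), but the call was lost without control replicate 2 (0.42, adjusted p = 0.0726) and under 12 of the alternatives tried in all. Tfam and Nrf1, main activators of mitochondrial transcription and of these genes, differed by 0.13 (not tested) and 0.32 (limma adjusted p = 0.412). Among genes of coenzyme Q synthesis 1 of 9 tested rose, against the same 2.33%, the atypical kinase Coq8b, with 9.24, 9.14 and 9.32 in the control and 9.80, 9.94 and 9.98 with SRA. Its groups were clearly apart with and without control replicate 2 (0.67, SE 0.17, limma adjusted p = 0.0137 and 0.0174). No tested gene was called in the lists for assembly of complex IV (8 tested), assembly of complexes II, III and V (9), mitochondrial DNA maintenance (7), electron input from fatty acids and other dehydrogenases (6), ATP and phosphate transport (3) or uncoupling proteins (1).

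**Figure D3:**
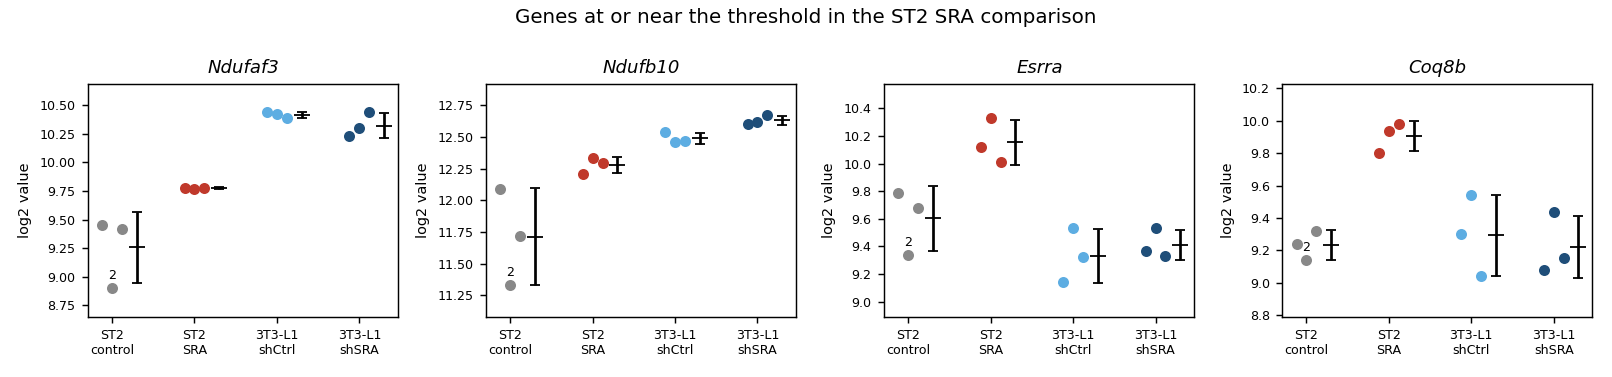
Log2 values of Ndufaf3, Ndufb10, Esrra and Coq8b on each array (points), by group, with the mean and SD over 3 arrays as bars; the mark 2 is ST2 control replicate 2. All 3 ST2 SRA arrays lie above all 3 ST2 control arrays for each gene, and shSRA stays close to shControl.

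The second comparison asked whether SRA knockdown in 3T3-L1 adipocytes changed the same genes. None of the 38 tested members was called by limma in either direction (0.0315% of all probe sets rose and 0.042% fell), and 0 passed at an unadjusted p under 0.05 (1.38% and 1.42% of all probe sets), or with the replicate number as a block (0.325% and 0.205%). Over all 90 genes the differences ran from -0.22 to 0.20. The 95% intervals of the tested members reached from -0.68 to 0.68, and for 31 of the 38 they lay within 0.5 on either side of 0. With same-numbered arrays as pairs the intervals reached from -0.52 to 0.52, and 35 lay within that range of 0.5. With 3 arrays per group, changes within these intervals are not excluded. The intervals are not adjusted for the number of tests, so they set no limit above which a change would have been called.

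The median difference was 0.05 with 75 genes above 0 (83.3%), against -0.01 and 46.1% over all genes and 0.02 and 59.6% over genes with a mean of at least 12. By complex the medians were 0.05, 0.09, 0.04, 0.03 and 0.05 from I to V. The shControl and shSRA arrays did not overlap for 6 genes (6.67%, against 9.45% of all genes). Of these, Atp5g2, Atp5pb, Ndufa7, Ndufb10 and Sdhc were higher in shSRA. Ndufb4 was lower, by -0.35, -0.14 and -0.14 in the same-numbered pairs, at a dim mean of 5.29 over the 12 arrays. Within same-numbered pairs, 24 genes were higher in shSRA in all 3 pairs (26.7%, against 14.1% of all genes) and 5 lower in all 3 (5.56%, against 17.3%). The study's own gene set analysis lists an electron transport chain set and an oxidative phosphorylation set among those raised by the knockdown. That analysis scores whole sets, while the calls here are of single genes. The study also reports more single genes changed by the knockdown than this fit called.

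The largest single differences were small. Ndufaf4, an assembly factor of complex I, read 10.26, 9.94 and 10.12 in shControl and 10.39, 10.14 and 10.40 in shSRA (0.20). Cox6b2, known as a testis isoform, read 4.81, 4.91 and 5.07 against 4.87, 4.82 and 4.44 (-0.22), near the floor of the array. Both pairs of groups overlapped, while within same-numbered arrays Ndufaf4 was higher in 3 of 3 (by 0.13, 0.20 and 0.28). Ndufb10 read 12.54, 12.46 and 12.47 in shControl and 12.60, 12.62 and 12.67 in shSRA, higher in 3 of 3 pairs, and Ndufaf3 10.44, 10.42 and 10.39 against 10.23, 10.30 and 10.44. Cox6a2 read 9.40, 8.60 and 8.69 against 9.34, 8.87 and 8.91, with an interval of -0.39 to 0.68 around 0.14. None of the pathway lists held a called gene in the knockdown, whose summed adipocyte markers were 16.99 to 17.14 in shControl and 17.07 to 17.15 in shSRA. Summed preadipocyte and fibroblast markers were 15.21 to 15.40 in shControl and 14.93 to 15.06 in shSRA, without overlap. Of the 8 tested, 1 fell (0.042% of all probe sets fell), the collagen-binding proteoglycan Lum (-1.57, SE 0.26, limma adjusted p = 0.0173, and 0.0761 without ST2 control replicate 2). Their part in the values of the members was not tested.

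The difference between the SRA effects of both lines was tested in the same limma model. No member was called (0.246% of all probe sets were higher and 2.07% lower), and 2 had an unadjusted p under 0.05 (5.26%, against 4.69% of all probe sets), both higher in ST2, with 0 lower (6.71%). For Ndufaf3 the ST2 effect exceeded the 3T3-L1 effect by 0.61 (limma adjusted p = 0.259), and for Cox7a1 by 0.79 (limma adjusted p = 0.388). For Cox6a2 the difference was 0.75 with a 95% interval of -0.01 to 1.51 (limma adjusted p = 0.444). This test sets a gain of SRA in ST2 against a loss in 3T3-L1, so line and direction of perturbation cannot be told apart. The effects of the gain and of the loss on these genes were thus not shown to differ, and whether both lines respond alike to SRA was not tested. The median over the 90 genes was 0.18 with 83 above 0 (92.2%), against 63.6% of all genes and 70.8% of genes with a mean of at least 12, and it was 0.04 without ST2 control replicate 2.

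The third comparison set the control adipocytes of both lines side by side. It holds line, day of differentiation and vector at once, which cannot be told apart, and it shares the ST2 control arrays with the first comparison, so the values of both lean on the same 3 arrays. Of the 38 tested members 29 were higher in 3T3-L1 (76.3%, against 37.4% of all probe sets) and 2 lower (5.26%, against 26.2%). Without ST2 control replicate 2 these were 26 and 3 (32.9% and 32.1% of all probe sets). The variance filter keeps genes that differ between groups, so the counts among tested members describe and support nothing. With no filter, 31 of the 90 were higher and 2 lower (16.6% and 11.2% of all probe sets).

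Over all 90 members the median difference was 0.26, with 81 above 0 (90%), against 0.02 and 53.2% over all genes and 0.16 and 65.6% over genes with a mean of at least 12. Without ST2 control replicate 2 it was 0.15, with 64 above 0 (71.1%), against 0.02 and 52% over genes as bright. By complex the medians were 0.26, 0.34, 0.26, 0.19 and 0.27 from I to V, and 0.12, 0.19, 0.10, 0.16 and 0.15 without that array. The shControl and ST2 control arrays did not overlap for 40 genes (44.4%, against 37.4% of all genes), and for 49 without control replicate 2 (54.4%, against 52% of all genes). The sign turned without that array for 17 genes, none of which was tested or had differed by more than 0.17.

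**Figure D4:**
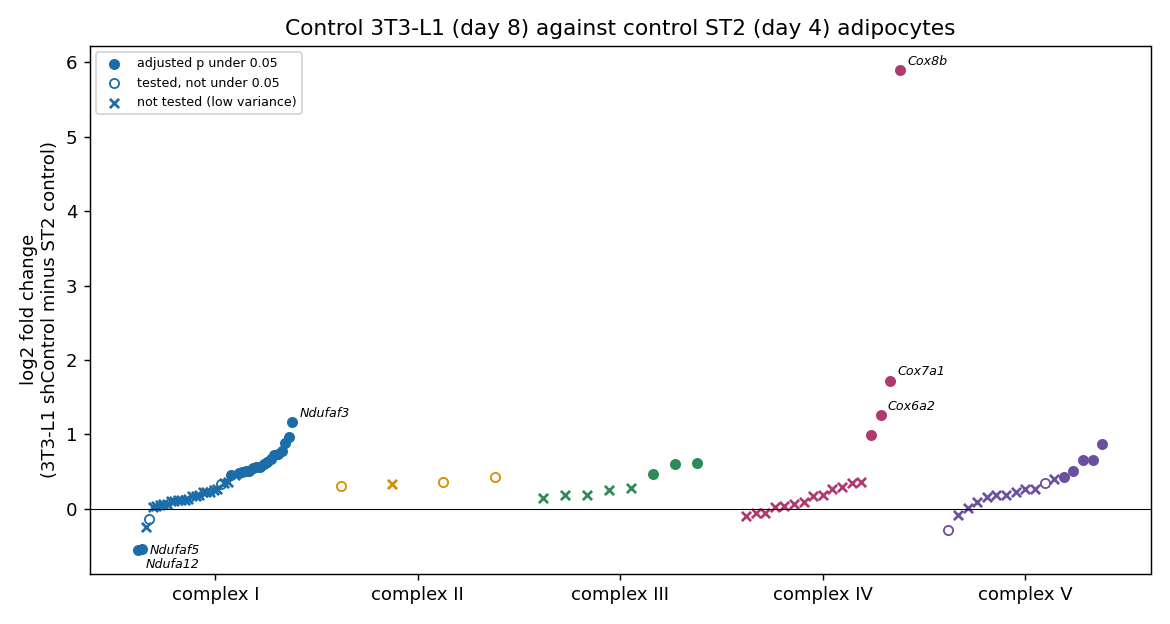
Log2 difference of each member between 3T3-L1 shControl and ST2 control (y axis), by complex, with filled points called, open points tested and not called, and crosses not tested. Cox8b stands alone at 5.90, and Ndufa12 and Ndufaf5 are the called genes below 0, at -0.55 and -0.54.

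Complex IV held the 3 largest differences, all in muscle-type isoforms. Cox8b, the heart and muscle isoform of the smallest subunit, read 7.38, 7.02 and 6.83 in ST2 control and 12.74, 13.08 and 13.09 in 3T3-L1 shControl. It read 6.87, 6.94 and 7.05 in ST2 SRA and 12.80, 13.14 and 13.23 in shSRA. The lines differed by 5.90 (SE 0.18, limma adjusted p = 7.03e-16). This is 59.7-fold in RMA values, which understate folds where 1 group is dim, and the ST2 values lay near the array medians of 6.45 to 6.53. SRA moved the gene by -0.12 and 0.08. Cox7a1 read 9.66, 10.12 and 9.48 in shControl, all above the ST2 control arrays given above (1.72, SE 0.25, limma adjusted p = 9.29e-06). Cox6a2 was higher by 1.26 (SE 0.26, limma adjusted p = 0.000348), also without overlap. Their promoter windows printed above are those with 1 and 4 CpG for Cox8b and Cox7a1, and Cox6a2 had no window.

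The ubiquitous isoforms did not share this size. Cox8a read 13.93, 13.61 and 14 in ST2 control and 13.66, 13.99 and 13.71 in shControl (-0.06). Cox7a2 read 13.90, 13.41 and 13.71 against 13.97, 13.95 and 13.88 (0.26), and Cox6a1 14.63, 14.41 and 14.64 against 14.72, 14.81 and 14.72 (0.19). None passed the variance filter. Other isoforms of limited tissues differed little, with Cox4i2 at 6.18 to 6.82, Cox6b2 at 4.44 to 5.10, Cox7b2 at 3.89 to 4.20 and Cox8c at 8.61 to 9.11 over all 12 arrays. The fourth tested gene of complex IV, Cox7c, was also called (0.99, SE 0.24, limma adjusted p = 0.00192), with 7.31, 6.08 and 7.17 in ST2 control and 8.02, 7.61 and 7.88 in shControl. Control replicate 2 was its lowest array, and without it the difference was 0.60.

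**Figure D5:**
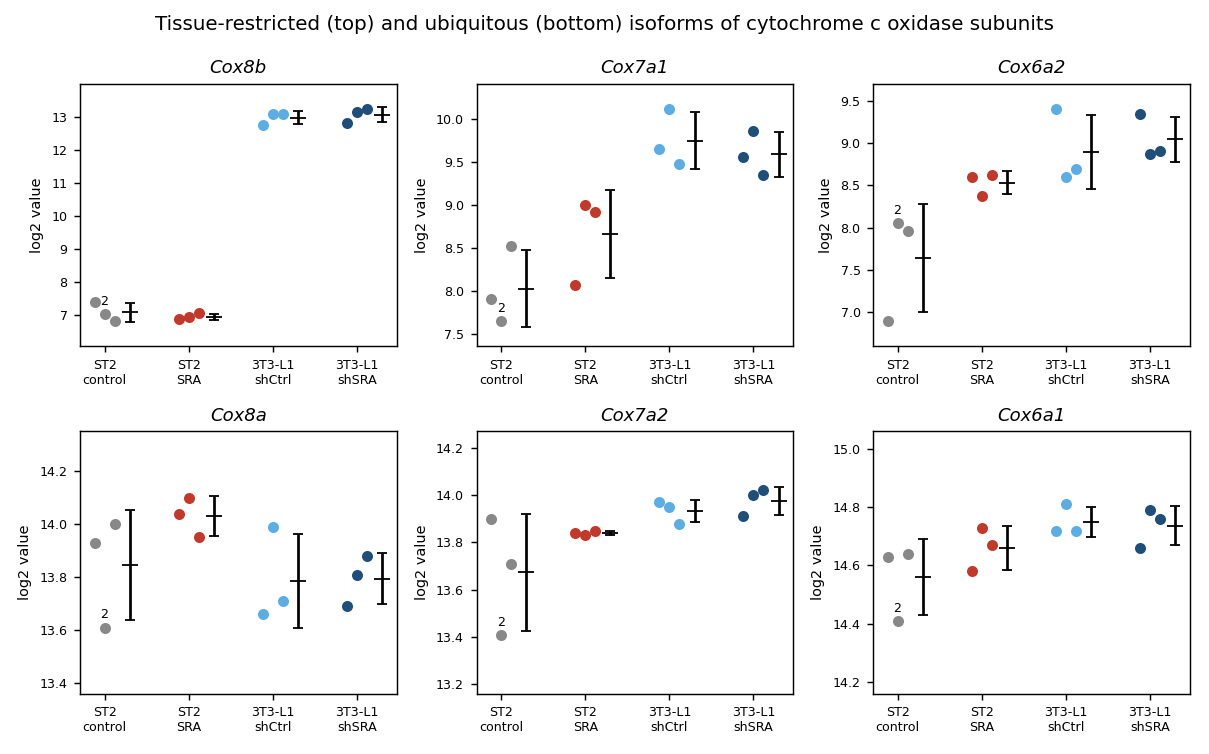
Log2 values of the muscle-type isoforms Cox8b, Cox7a1 and Cox6a2 (top) and their ubiquitous counterparts Cox8a, Cox7a2 and Cox6a1 (bottom) on each array, by group, with mean and SD over 3 arrays; the mark 2 is ST2 control replicate 2. Cox8b stays between 6.83 and 7.38 on all ST2 arrays and between 12.74 and 13.23 on all 3T3-L1 arrays, while Cox8a stays between 13.61 and 14.10 on all 12.

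By complex, the counts stand beside 37.4% of all probe sets higher and 26.2% lower (32.9% and 32.1% without ST2 control replicate 2), and hold members that passed the variance filter. In complex I, 17 of 21 tested members were higher in 3T3-L1 and 2 lower (15 and 2 without that array). The largest was Ndufaf3 (1.16, SE 0.16, limma adjusted p = 6.16e-06), followed by the methyltransferase assembly factor Ndufaf7 (0.97) and the accessory subunit Ndufb7 (0.88). The accessory subunit Ndufa12 was lower in 3T3-L1, with 13.55, 13.06 and 13.30 in ST2 control and 12.78, 12.80 and 12.69 in shControl. Its groups did not overlap (-0.55, SE 0.16, limma adjusted p = 0.00529). The assembly factor Ndufaf5 read 9.59, 8.91 and 9.42 against 8.99, 8.67 and 8.64, with overlap through control replicate 2 (-0.54, SE 0.18, limma adjusted p = 0.0139). Core subunits of complex I differed by 0.04 (Ndufv1) to 0.56 (Ndufs3, limma adjusted p = 0.00946), and by -0.12 and 0.38 without control replicate 2. Over all complexes the median was 0.25 for core and 0.28 for accessory subunits (0.07 and 0.17 without that array).

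None of the 3 tested members of complex II was called, and all 3 of complex III were higher, Uqcr10 by 0.61, Uqcrq by 0.60 and Uqcrh by 0.47 (0.42, 0.45 and 0.30 without ST2 control replicate 2). In complex V 5 of 7 were higher (4 higher and 1 lower without control replicate 2), led by the coupling subunit Atp5j, at 12.72, 12.18 and 12.61 in ST2 control and 13.41, 13.44 and 13.27 in shControl. Its groups were far apart (0.87, SE 0.16, limma adjusted p = 0.000164). The catalytic head differed little, Atp5b by 0.01 and Atp5a1 by 0.09 (-0.09 and -0.03 without control replicate 2). Atp5d, the δ subunit of the central stalk, was lower by 0.29 without passing (limma adjusted p = 0.108), and was called when control replicate 2 was left out (-0.43, adjusted p = 0.0046). The second Atp5d probe set was lower by more and was called (-0.54, limma adjusted p = 0.00703), and of the further Ndufa12 probe sets 2 were lower (-0.52 and -0.61) and 1 did not differ in its mean (0.00). A dimmer Ndufb8 probe set was called lower (-0.99, limma adjusted p = 0.000177, and -1.24 without control replicate 2). The one kept by the rule was higher by 0.36 and not tested. Other dimmer probe sets were called higher, as for Atp5g2 (1.31, limma adjusted p = 8.43e-07), and not all are given here.

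The largest change among the regulators was Ppargc1a, which encodes the coactivator PGC-1α. It read 4.70, 4.94 and 4.32 in ST2 control, 4.93, 4.66 and 4.57 in ST2 SRA, 8.58, 8.71 and 7.72 in shControl and 9.18, 8.86 and 8.21 in shSRA. No ST2 array reached any 3T3-L1 array (3.68, SE 0.25, limma adjusted p = 2.48e-10). The related coactivator Ppargc1b was lower in 3T3-L1 (-0.78, SE 0.18, limma adjusted p = 0.00125). In all, 7 of 13 tested regulators were higher and 4 lower, where 37.4% of all probe sets were higher and 26.2% lower. Without ST2 control replicate 2 they were 6 and 6, against 32.9% and 32.1%. The other lists, with the counts without that array in brackets, gave 6 higher and 1 lower (5 and 1) of 9 for coenzyme Q synthesis, with Coq8a at 1.88, and 7 and 0 (4 and 0) of 7 for mitochondrial DNA maintenance. Electron input gave 5 and 0 (4 and 0) of 6, complex IV assembly 4 and 2 (3 and 2) of 8, and assembly of complexes II, III and V 4 and 2 (3 and 2) of 9. ATP and phosphate transport gave 2 and 0 (2 and 1) of 3, and uncoupling proteins 1 and 0 (1 and 0) of 1. The complex IV assembly factors Coa3 (-1.18) and Sco2 (-0.94) were the lower genes of their list. These counts are among genes that passed the variance filter and describe only.

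Brown or beige adipocyte markers moved with the line in part. Of 7 on the array 4 were tested. Cidea (4.12, limma adjusted p = 4.15e-11) and Ppargc1a were higher, and Elovl3 (-1.58, limma adjusted p = 8.76e-05) and Dio2 (-0.64, limma adjusted p = 0.00579) lower. Of all tested probe sets 37.4% were higher and 26.2% lower (32.9% and 32.1% without ST2 control replicate 2). The median difference over the 7 markers was -0.19 (0.01 without that array). Their summed level was 9.29 to 9.71 in ST2 control and 10.33 to 10.53 in shControl, while Ucp1 and Prdm16 read at most 6.34 and 6.79 on every array. Summed markers of dividing cells were 10.63 to 11.32 in ST2 control and 8.50 to 8.70 in shControl, and summed adipocyte markers 16.46 to 16.85 and 16.99 to 17.14. Summed preadipocyte and fibroblast markers were 14.64 to 15.06 and 15.21 to 15.40. Of 8 tested, 6 were higher, among them Dlk1 (6.46) and Dcn (6.29), and 1 lower. Without ST2 control replicate 2 these counts were 5 and 1, and they stand beside the shares of all probe sets just given. Summed muscle markers were lower in 3T3-L1, 8.83 to 9.09 against 8.62 to 8.80, with Acta1 the 1 tested gene (-0.76, SE 0.21, limma adjusted p = 0.00373). The part of these in the differences between lines was not tested.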

How the data were processed

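RNA from 12 cell samples was hybridised to Affymetrix mouse expression arrays, from 5 µg of total RNA each. The deposited values are log2 expression values that the authors computed with RMA (background correction, quantile normalisation and probe summary), and the submitters' processing notes name RMA, affy and limma without versions. RMA compresses low signals, so folds of dim probe sets are understated. Depth does not apply to arrays, and 3 arrays per group limit the precision.

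Samples were grouped by their labels. Probe sets of 1 gene symbol were used (34958, with 932 of several symbols and 9211 of none left out), and the brightest by mean was kept per gene. A further 10 member-like probe sets of several symbols were left out. Probe sets with a variance over 0.05 were fitted in R 4.3.3 with limma 3.58.1 (lmFit and eBayes, 4 groups, Benjamini-Hochberg at 0.05 within each comparison). Filter, package and threshold follow the study. The study also describes judging each comparison with regard to the same comparison in the other line, which the main fit did not do. The number of calls differs. The main fit called 445 probe sets higher and 1077 lower in ST2, and 6 and 8 in the knockdown. A nested F test over both SRA comparisons called 206 and 802 in ST2, and 46 and 44 in the knockdown. The study reports more in total for both comparisons, most of all for the knockdown, and the reason was not tested. Promoter windows came from RefSeq tables. The fit was tested on simulated data.

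Same-numbered arrays deviated together in 3T3-L1 cells (r = 0.59, 0.59 and 0.38) and were taken as pairs there. In ST2 cells they did not all do so. Alternatives were no filter, leaving out each array, the replicate number as a block, 2 other scalings, array weights, other probe set choices, each line alone, a trend in the prior and a nested F test. Differences within 3T3-L1 pairs and group overlap without ST2 control replicate 2 were added after seeing the data. The genes named are the called members, those at the ends of each complex, the 5 largest rises and falls between lines, a fixed set of isoforms and core subunits, and list members that passed. Ndufaf7, Ndufb7, Ndufb8, Ndufs3, Atp5j, Tfam, Nrf1 and Prdm16 were named after their values were seen. The members, gene lists and tests were chosen with earlier results of these data known.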

Additional observations from a re-analysis of the deposited data

How the results depend on the processing

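Among the 10 genes followed, none turned sign where the main fit or the alternative called it. The fits with no filter, a trend in the prior or a nested F test were not part of this check. Without ST2 control replicate 2 small differences turned sign for 15 of the 90 genes in ST2 and 17 between lines. The knockdown gave 0 calls in every alternative. For SRA overexpression in ST2 cells the number of called members was 1 with all arrays and ran from 0 to 5 when 1 array was left out. It was 5 without ST2 control replicate 1 (Ndufa5, Ndufaf3, Ndufaf4, Ndufb10 and Ndufs8), 2 without control replicate 3 (Cox6a2 and Cox7a1), 1 without SRA replicate 1 (Cox7a1) and 0 without SRA replicate 2 or 3. Of all probe sets 5.12% rose and 4.44% fell without control replicate 1, and 2.11% and 4.01% without control replicate 3. The shares were 1.18% and 4.03% without SRA replicate 1, 0.698% and 3.23% without SRA replicate 2, and 1% and 4.91% without SRA replicate 3. A second quantile normalisation gave 2 and centring on bright probe sets 2 (Ndufaf3 and Ndufb10 in both), the probe set of highest variance 2 (Atp5c1 and Cox6a2), the mean over probe sets 3 and a trend in the prior 3 (Cox6a2, Ndufaf3 and Ndufb10 in both), and the nested F test 0. Of all probe sets 4.32% rose and 8.68% fell after the second quantile normalisation, and 2.13% and 6.82% after centring. The probe set of highest variance used the main fit (2.33% and 5.65%). Of all genes 5.15% rose and 8.4% fell with the mean over probe sets. The trend gave 2.98% and 5.78% of all probe sets, and the nested F test 1.08% and 4.21%. Array weights gave 17, with a weight of 0.08 on control replicate 2 and 18.26 on replicate 3, and their estimation stopped before it converged. With these weights 16.5% of all probe sets rose and 21.9% fell. For the difference between the SRA effects the second quantile normalisation gave 1 and array weights 1 (Ndufaf3), against 0. Of all probe sets 0.706% were higher and 3.45% lower in the former, and 4.62% and 11.9% in the latter. For the lines the count ran from 25 to 35 when 1 array was left out, and was 19 (16 higher, 3 lower) of 21 tested after the second quantile normalisation, which passes fewer members through the filter. Of all probe sets 36.7% were higher and 33.7% lower after that normalisation. The count of 25 was without shControl replicate 2 (32.9% of all probe sets higher and 22.2% lower). That of 35 was without ST2 control replicate 1 (40.1% and 25.6%). The causes of the other changes were not tested.

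With the replicate number as a block within each line, 4 members were called in ST2 cells (Cox6a2, Cox7a1, Ndufaf3 and Ndufb10, where 7.22% of all probe sets rose) and 0 in 3T3-L1 cells. Numbers in ST2 mark no known pairing (r = 0.04, 0.27 and 0.53 between same-numbered arrays). No block fit exists for the lines, since the numbers are nested within them. The median over the 90 genes kept its sign in all alternatives, at 0.07 to 0.34 for ST2, 0.02 to 0.09 for the knockdown and 0.15 to 0.38 for the lines.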
